A study of Mus musculus with 6 samples.

Results

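The 9 genes described here, read in 4T1 mouse mammary carcinoma cells, encode factors found in epithelial cells: the splicing regulators Esrp1 and Esrp2 and the transcription factors Ovol1, Ovol2, Grhl1, Grhl2, Elf3, Ehf and Bnc1. The gene names were chosen with earlier results of these arrays known. Their probes were then selected on the arrays themselves, by a detection p-value under 0.05 on 3 or more of the 6 arrays, counted over both groups. Of the 16 probes that the array carries for the 9 genes, 10 passed, and these measured 7 genes out of 9348 genes tested. Ehf and Grhl1 had no probe that passed.

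Total RNA came from 3 cultures of 4T1 cells labelled 4T1-MMP3lo, which carry a short hairpin RNA (shRNA) against Mmp3, and from 3 cultures labelled 4T1-SC, which carry a scrambled hairpin. Both lines derive from 4T1, a mammary carcinoma of BALB/c origin, were made by lipid transfection of a plasmid followed by puromycin selection, and grew in the same RPMI medium with serum. The comparison asks how the transcripts of these tumor cells differ between a line in which the secreted protease MMP3 is targeted and its control. Each hairpin is carried by a single line, so its effect and a difference between the lines cannot be told apart. The titles of the 4T1-MMP3lo cultures also carry the mark Cl1, which the labels do not explain. For the CMS4 tumor line, the study compared separate hairpin constructs, used the word clones for those that worked, and went on with a single one. Similar methods were used for 4T1, so that Cl1 may name a construct. Whether the line grew from a single cell is not stated. Each MouseWG-6 bead array held 45281 probes, and 16722 to 17548 of them were detected. The labels call the 3 samples of a group biological triplicates without saying what separates them. Each title ends in a date, which 1 culture from either group shares. Which step it dates is not stated, and it is called the day here. Arrays of the same day carry the same replicate number and are called a pair.

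Values below are log2 intensities after background correction and quantile normalization with an offset of 16, the brightest kept probe stands for a gene, and adjusted p-values come from limma with the Benjamini-Hochberg method over all genes tested. Mmp3, the target of the hairpin, did not pass this test as lower on the arrays labelled 4T1-MMP3lo. It measured 10.64, 13.40 and 13.33 on the arrays labelled 4T1-MMP3lo and 11.52, 12.98 and 13.04 on the 4T1-SC arrays, a log2 fold change of −0.06 (standard error, SE, 0.74, 95% interval −1.75 to 1.64, adjusted p = 0.99 from limma). Its pairs differed by −0.88, 0.42 and 0.29, and the mean of its 3 kept probes gave a log2 fold change of −2.4e-05. The study itself reported a knockdown of MMP3 in its 4T1 cells, by quantitative PCR and by ELISA of the secreted protein. Groups are called by their labels throughout, and differences run as 4T1-MMP3lo minus 4T1-SC. 4T1-SC replicate 1 also stood apart from its group. Across all probes kept, which are not independent replicates, it correlated at 0.978 with the array labelled 4T1-MMP3lo replicate 1, and at 0.938 and 0.954 with the other 4T1-SC arrays. Epithelial identity was checked with 7 marker genes. Krt8, Krt18, Krt19, Krt7, Cdh1 and Ocln were detected on all 6 arrays, and the single probe of Epcam on none. Of the markers of other cell types, 5 of 6 leukocyte genes, 3 of 7 fibroblast genes (Col1a1, Lum and Thy1) and 3 of 6 endothelial genes (Pecam1, Vwf and Emcn) were detected on no array.

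The ESRP proteins are RNA-binding proteins of epithelial cells that decide which exons enter the transcripts of genes such as Cd44, Fgfr2 and Ctnnd1. The OVO-like zinc finger proteins repress mesenchymal regulators such as Zeb1, and the Grainyhead-like proteins activate genes of the adherens and tight junctions. Elf3 and Ehf are ETS factors of simple and glandular epithelia, and Bnc1 (basonuclin) is a zinc finger protein of the basal layer of stratified epithelia and of germ cells. Carcinoma cells that take on mesenchymal traits commonly lose several of these factors together.

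All 7 measured genes had a negative log2 fold change, and by the brightest probe all 7 were lower in each of the 3 pairs. The share of all genes lower in all 3 pairs was not counted. The other kept probes of Elf3 each had a pair of positive sign. In the pair of replicate 1, Elf3 and Grhl2 were lower only after normalization. For Elf3 the scanner gave 227.1 units on the array labelled 4T1-MMP3lo and 190.6 on that of 4T1-SC. Esrp1, Ovol2 and Bnc1 fell at an adjusted p under 0.05, and no gene of the group rose. Over all genes tested, 46 were lower past that threshold, or 0.492%, and 56 were higher, or 0.599%. The median log2 fold change of the 7 genes was −1.01, against 0.016 over all genes, of which 4460 (47.7%) were negative. In 5 of the 7 genes every array labelled 4T1-MMP3lo lay below every 4T1-SC array, a separation found in 754 of all genes (8.07%). Within the pairs the median over the 7 genes was −0.72 in replicate 1, −1.10 in replicate 2 and −1.15 in replicate 3. Since the genes were chosen with results in view, these counts describe the group and do not test it. Esrp1 and Bnc1 are also among the genes that the study itself picked from these arrays.

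**Figure D1:**
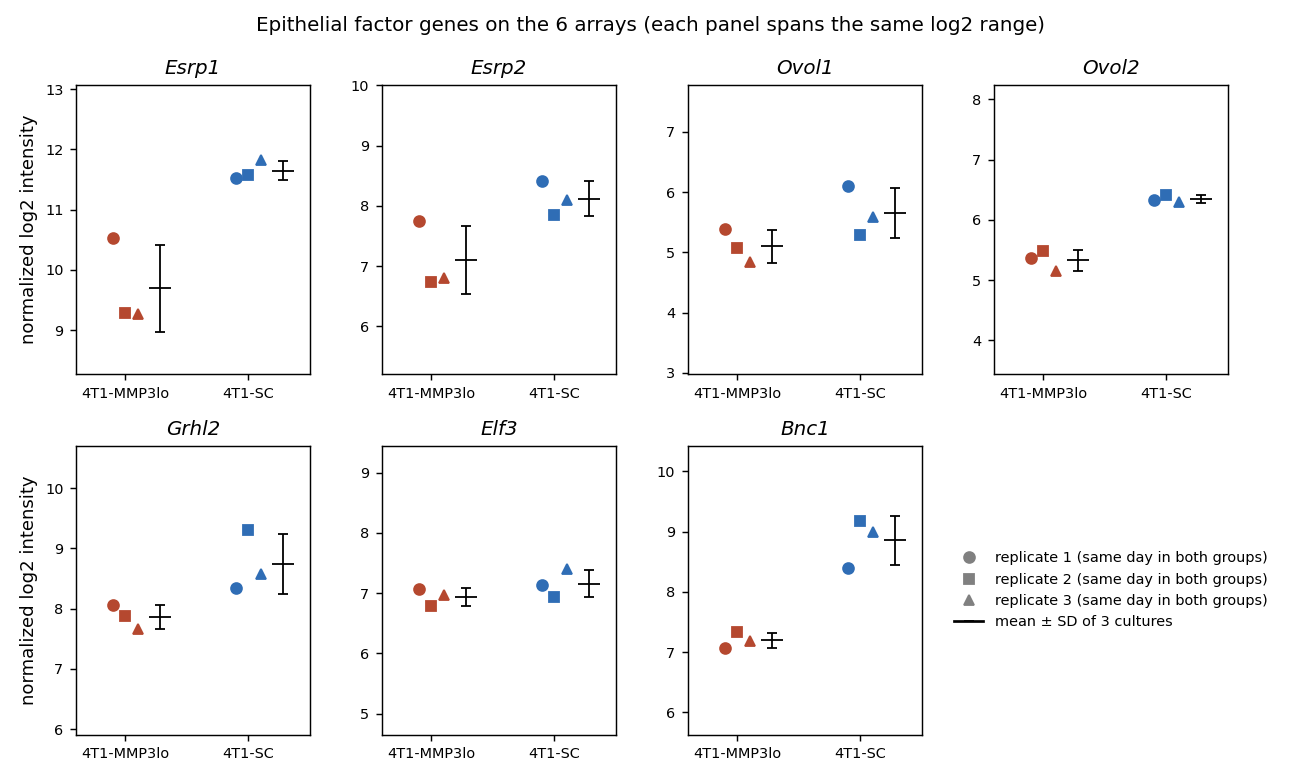
Normalized log2 intensity (vertical axis) of the 7 measured genes on each array, with 4T1-MMP3lo in red at the left, 4T1-SC in blue at the right, the replicate number by symbol, and the mean and SD of 3 cultures in black. The groups overlap only for Ovol1 and Elf3, and in Esrp1 and Esrp2 replicate 1 is the highest of the arrays labelled 4T1-MMP3lo.

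Esrp1, the main epithelial splicing regulator, showed the largest difference of the 7. Its gene lies on chromosome 4 (11331933 to 11386783, GRCm38.p6) and is read by 1 probe, detected on all arrays. The scanner intensity was 1687.9, 639.6 and 766.8 on the arrays labelled 4T1-MMP3lo and 2626.3, 3486.4 and 3697.5 on the 4T1-SC arrays. Replicate 1 was the highest of the arrays labelled 4T1-MMP3lo and the lowest of the 4T1-SC arrays, and the groups did not overlap. After normalization the log2 intensities were 10.53, 9.29 and 9.26 on the arrays labelled 4T1-MMP3lo (9.69 ± 0.72, SD, n = 3) and 11.53, 11.58 and 11.83 on the 4T1-SC arrays (11.65 ± 0.16, SD, n = 3). Esrp1 therefore fell by 1.95 on the log2 scale, or 3.87-fold (SE 0.34, 95% interval −2.73 to −1.18, adjusted p = 0.0419 from limma). The pairs differed by −1.01, −2.29 and −2.57 for replicates 1 to 3, so that the difference was smallest on the day of replicate 1. The call was lost without 4T1-MMP3lo replicate 2 or 3 or 4T1-SC replicate 2 or 3 (adjusted p = 0.144 to 0.223), while the log2 fold change stayed between −2.37 and −1.74 with any 1 array left out.

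Esrp2, its paralog with overlapping targets, is read by 2 kept probes. The gene lies on chromosome 8 (106130319 to 106137193). The probe that stands for it had 313.2, 184.3 and 218.5 intensity units on the arrays labelled 4T1-MMP3lo and 363.8, 351.6 and 357.7 on the 4T1-SC arrays. As with Esrp1, the culture of replicate 1 was the highest of those labelled 4T1-MMP3lo, and none of that group reached the 4T1-SC arrays. The normalized values averaged 7.10 ± 0.57 on the arrays labelled 4T1-MMP3lo and 8.12 ± 0.29 on the 4T1-SC arrays (SD, n = 3 each), a log2 fold change of −1.02 (SE 0.30, 95% interval −1.72 to −0.33) that did not pass the threshold (adjusted p = 0.196 from limma). The other probe gave −0.71 (SE 0.28) and was lower in all 3 pairs after normalization. On the scanner scale its pair of replicate 1 went the other way, at 198.8 units for 4T1-MMP3lo and 186.3 for 4T1-SC. The pairs of the first probe differed by −0.67, −1.10 and −1.30, the same order of days as in Esrp1. With replicate 1 of both groups left out, the log2 fold change of Esrp2 was −1.20 and passed (adjusted p = 0.0081 from limma), in a fit that called 1012 genes against 102 with all arrays. With any 1 array left out it did not pass (adjusted p = 0.063 to 0.665).

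**Figure D2:**
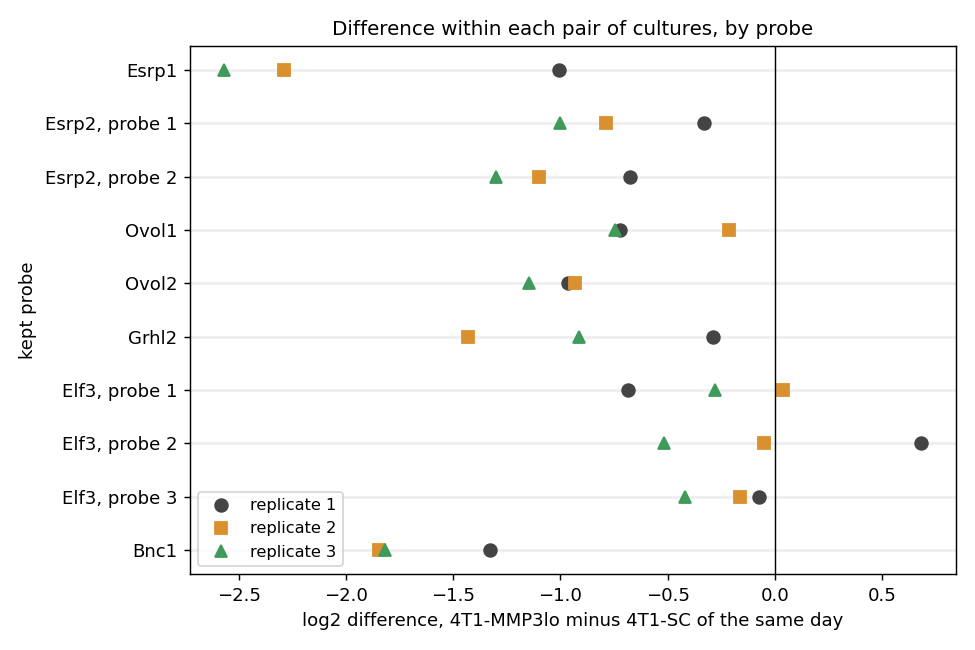
Log2 difference between the arrays labelled 4T1-MMP3lo and 4T1-SC of the same day (horizontal axis) for the 10 kept probes (vertical axis), with the replicate by symbol and colour and the line at 0 marking no difference. All 3 pairs lie left of 0 for every probe other than probes 1 and 2 of Elf3. Replicate 1 lies nearest to 0 for Esrp1, Esrp2, Grhl2, Bnc1 and probe 3 of Elf3.

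The transcripts that ESRP proteins splice were examined next, probe by probe, since a bead array that reads a single exon can miss a change in exon use or be the only place where it shows. Of 17 such genes listed, 15 were measured. With the brightest probe standing for each gene, none passed the threshold in either direction, 10 had a negative and 5 a positive log2 fold change, and the median was −0.17. The largest differences were those of Ralgps2 (−0.98, SE 0.32, adjusted p = 0.248 from limma) and Ctnnd1, the p120 catenin gene (−0.94, SE 0.26, adjusted p = 0.176). These 15 genes held 36 kept probes, and 4 of the 10 genes with more than 1 probe had probes of both signs. In a fit of every kept probe by itself, 66 of 16969 probes fell (0.389%), and 4 of these 66 were probes of Cd44.

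Cd44, singled out here after its values were seen, encodes the hyaluronan receptor. Its variable exons are kept in epithelial cells under ESRP control and skipped in mesenchymal cells, which make the standard form. The array carries 9 probes for it, and 7 were kept. They are numbered 1 to 7 by identifier. Probe 1, the brightest and therefore the one that stood for the gene, had log2 intensities of 11.31, 12.05 and 11.84 on the arrays labelled 4T1-MMP3lo and 11.75, 11.69 and 12.01 on the 4T1-SC arrays. The groups overlapped, and the log2 fold change was −0.08 (SE 0.23, 95% interval −0.62 to 0.45). Probes 2 and 7 also overlapped, with log2 fold changes of −0.35 (SE 0.52) and −0.31 (SE 0.45). Probe 2 was near the background of the array and was detected on 2 of the 3 4T1-SC arrays. Its scanner intensity was 117.7, 132.8 and 134.5 on the arrays labelled 4T1-MMP3lo and 95.7, 225.7 and 132.2 on the 4T1-SC arrays.

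The remaining probes of Cd44 had larger log2 fold changes than any gene of the epithelial factor group. Probe 3 had log2 intensities of 7.97, 8.25 and 8.08 on the arrays labelled 4T1-MMP3lo and 10.25, 10.70 and 10.75 on the 4T1-SC arrays, and its scanner intensity was 352.2, 357.6 and 395.8 on the arrays labelled 4T1-MMP3lo and 1139.4, 1875.2 and 1769.8 on the 4T1-SC arrays. It fell by 2.46 on the log2 scale, or 5.51-fold (SE 0.21, 95% interval −2.93 to −1.99, adjusted p = 0.00998 from limma over all kept probes). Its values within each group lay close together, also on the day of replicate 1. Probe 5 had 5.81, 6.04 and 5.93 on the arrays labelled 4T1-MMP3lo and 7.95, 8.34 and 8.79 on the 4T1-SC arrays, and fell by 2.43 (SE 0.24, adjusted p = 0.0101 from limma). Probe 6 had 7.25, 7.24 and 7.0 on the arrays labelled 4T1-MMP3lo and 9.0, 9.70 and 9.67 on the 4T1-SC arrays, and fell by 2.29 (SE 0.24, adjusted p = 0.0101). Probe 4 had 6.59, 5.74 and 6.29 on the arrays labelled 4T1-MMP3lo and 8.11, 9.02 and 8.57 on the 4T1-SC arrays, and fell by 2.36 (SE 0.30, adjusted p = 0.0168). None of these probes shows an overlap between the groups, and in the pair of replicate 1, where Esrp1 differed by −1.01, they differed by −2.28, −1.53, −2.14 and −1.75 for probes 3, 4, 5 and 6.

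Probes of 1 transcript are not independent replicates, and the p-values treat each by itself. All 7 probes carry the same transcript accession in the annotation of the array, and which exon each reads is not given in the sources used here. The split thus shows unequal change between probes annotated to the gene, and not whether or which form changed. Whether each probe reads Cd44 alone was not tested. Each of the 4 calls was lost when 4T1-MMP3lo replicate 2 or 3 or 4T1-SC replicate 2 or 3 was left out (adjusted p = 0.063 to 0.118 from limma), with log2 fold changes between −2.64 and −2.13 whichever array was left out. Without background correction, probes 4 and 5 gave −1.53 and −1.49 and lost their calls (adjusted p = 0.069 and 0.0516).

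**Figure D3:**
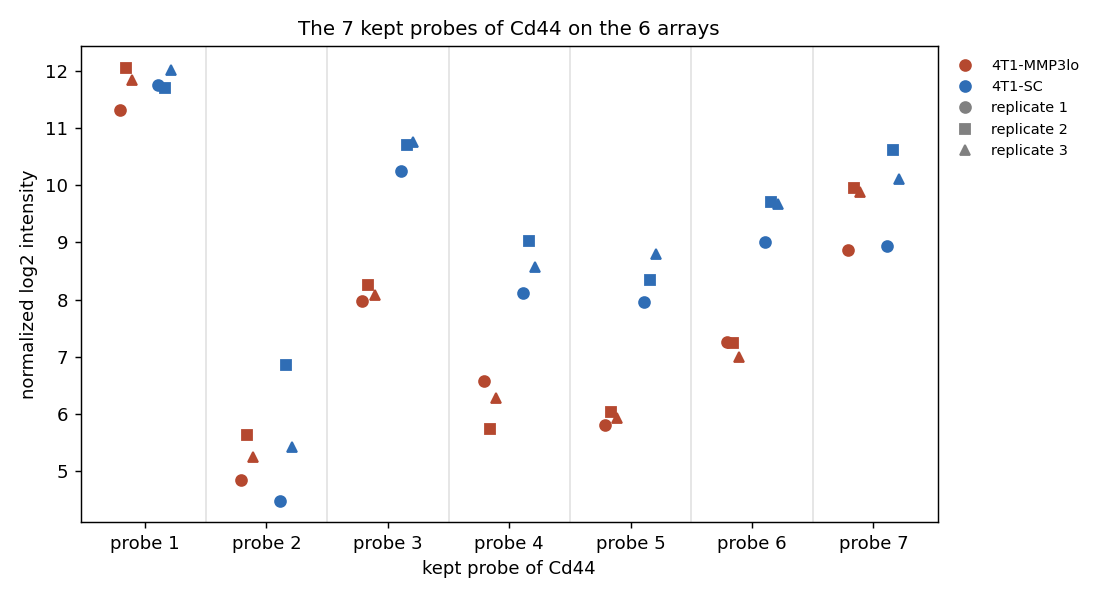
Normalized log2 intensity (vertical axis) of the 7 kept probes of Cd44 (horizontal axis) on each array, with 4T1-MMP3lo in red at the left of each probe, 4T1-SC in blue at the right, and the replicate number by symbol. Probes 3 to 6 leave a gap between the groups on all 3 days, while probes 1, 2 and 7 overlap.

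The other well known ESRP targets gave smaller or no differences. Ctnnd1 had 2 kept probes annotated to different transcripts. The first had log2 intensities of 7.45, 7.95 and 7.78 on the arrays labelled 4T1-MMP3lo and 8.24, 9.15 and 8.61 on the 4T1-SC arrays, with no overlap, and the second gave a log2 fold change of 0.09 (SE 0.23). The 2 probes of Fgfr2, the receptor whose ligand binding depends on an ESRP-controlled exon, gave 0.15 and 0.18 (SE 0.32 and 0.34). Enah, another known target, was not detected on enough arrays to be measured. Of 20 other regulators of alternative splicing, 18 were measured and none passed the threshold. Their log2 fold changes were positive in 14 and negative in 4, with a median of 0.12. The largest were 0.58 for Celf2 (SE 0.29, adjusted p = 0.490 from limma) and 0.57 for Qk, the quaking gene (SE 0.18, adjusted p = 0.222), whose arrays labelled 4T1-MMP3lo all lay above the 4T1-SC arrays.

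The OVO-like genes were both near the background of the array, so their log2 fold changes depend on how background is removed. Ovol2, on chromosome 2 (144305175 to 144332080), fell. Its kept probe had 131.4, 128.2 and 131.5 intensity units on the arrays labelled 4T1-MMP3lo and 143, 189.7 and 166.6 on the 4T1-SC arrays, where the median of all probes was 96.6 to 112.6 on any array. The arrays labelled 4T1-MMP3lo were nearly equal and all lay below the 4T1-SC arrays. Normalized values of 5.37, 5.49 and 5.14 on the arrays labelled 4T1-MMP3lo (5.33 ± 0.17, SD, n = 3) and of 6.34, 6.42 and 6.29 on the 4T1-SC arrays (6.35 ± 0.07, SD, n = 3) gave a log2 fold change of −1.01, or 2.02-fold (SE 0.18, 95% interval −1.42 to −0.60, adjusted p = 0.0443 from limma). Its pairs differed by −0.96, −0.93 and −1.15, the most even of the group. With a normalization offset of 50 in place of 16 the log2 fold change was −0.63 (adjusted p = 0.083 from limma), and without background correction it was −0.40 (adjusted p = 0.142), so that the call was lost. It was also lost with any array left out other than 4T1-SC replicate 1 (adjusted p = 0.098 to 0.302).

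The array has further probes of Ovol2, annotated to another transcript, and these were not kept. Probe 2 was detected on 1 array, of 4T1-SC, and probe 1 on none, with intensities of 95.9 to 112.3 on the arrays labelled 4T1-MMP3lo and 94.8 to 121.1 on the 4T1-SC arrays. The fall of Ovol2 thus rests on a single probe. Ovol1, on chromosome 19 (5549137 to 5560575), had 131.9, 118.4 and 123 intensity units on the arrays labelled 4T1-MMP3lo and 133.7, 133.9 and 137 on the 4T1-SC arrays. After normalization its groups overlapped, at 5.10 ± 0.27 on the arrays labelled 4T1-MMP3lo and 5.66 ± 0.42 on the 4T1-SC arrays (SD, n = 3 each), with a log2 fold change of −0.56 (SE 0.26, 95% interval −1.15 to 0.03, adjusted p = 0.436 from limma).

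Grhl2, the Grainyhead-like gene of chromosome 15 (37232821 to 37363569), was read by 1 of its 2 probes. The kept probe had 369.5, 298.3 and 321 intensity units on the arrays labelled 4T1-MMP3lo and 351.3, 792.3 and 457.7 on the 4T1-SC arrays. On the scanner scale 4T1-SC replicate 1 lay below the array labelled 4T1-MMP3lo of its day, and after normalization it lay above it, at 8.35 against 8.06 for the array labelled 4T1-MMP3lo replicate 1. The group means were 7.87 ± 0.20 on the arrays labelled 4T1-MMP3lo and 8.74 ± 0.50 on the 4T1-SC arrays (SD, n = 3 each), a log2 fold change of −0.88 (SE 0.27, 95% interval −1.50 to −0.26, adjusted p = 0.219 from limma). Without 4T1-SC replicate 1 the log2 fold change was −1.07 and passed (adjusted p = 0.0284 from limma), in a fit that called 1000 genes against 102 with all arrays, and with any other array left out it did not pass (adjusted p = 0.307 to 0.705). Grhl1, on chromosome 12 (24572232 to 24617391), was not measured. Its probe 1 was detected on 1 array of each group, 1 array short of being kept, and its probe 2 on none. Every kept probe of the 9 genes was detected on all 6 arrays, so that 2 and 6 arrays were the numbers of detections just outside and just inside the limit.

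**Figure D4:**
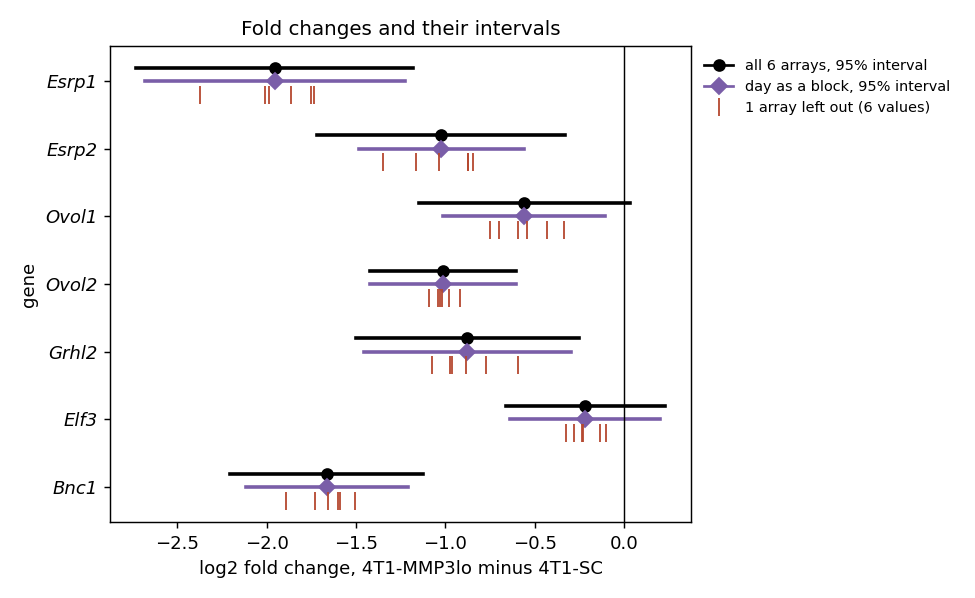
Log2 fold change of each measured gene (horizontal axis, arrays labelled 4T1-MMP3lo minus 4T1-SC), with black circles for all 6 arrays, purple diamonds for the fit with the day as a block, bars for 95% intervals, and red ticks for the values with 1 array left out. The black intervals of Ovol1 and Elf3 reach past 0, and every red tick lies left of 0.

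Genes that Grainyhead-like factors are known or thought to activate had negative log2 fold changes throughout. Of 16 such genes listed, 11 were measured, and all 11 ran negative, with a median of −0.96 against 0.016 over all genes. Cldn4, Cldn7 and Marveld3, all 3 of them genes of the tight junction, fell, and none rose, where 0.492% of all genes tested fell. In 6 of the 11 every array labelled 4T1-MMP3lo lay below every 4T1-SC array, as in 8.07% of all genes. Cldn4 and Rab25 were picked by the study from these arrays, and the list was drawn up with results known, so that its counts are no independent evidence of a direction.

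Cldn7 had log2 intensities of 6.04, 5.38 and 5.86 on the arrays labelled 4T1-MMP3lo and 7.26, 7.21 and 7.69 on the 4T1-SC arrays, and fell by 1.62 (SE 0.24, adjusted p = 0.0241 from limma). Marveld3 had 6.26, 6.03 and 5.78 on the arrays labelled 4T1-MMP3lo and 7.29, 7.81 and 7.42 on the 4T1-SC arrays, and fell by 1.49 (SE 0.22, adjusted p = 0.0241). Cldn4 had 10.96, 11.17 and 11.05 on the arrays labelled 4T1-MMP3lo and 12.17, 13.20 and 13.27 on the 4T1-SC arrays, and fell by 1.82 (SE 0.30, adjusted p = 0.0329). All 3 were clear of overlap between the groups. Rab25, a GTPase of epithelial vesicle traffic, differed by −1.78 (SE 0.44, adjusted p = 0.122), with pairs at −0.64, −2.26 and −2.45. Cdh1, the E-cadherin gene, differed by −0.72 (SE 0.27, adjusted p = 0.326), and its pair of replicate 1 went the other way, at 0.06. The median of the 11 genes was −0.28 in the pair of replicate 1, −1.43 in that of replicate 2 and −1.51 in that of replicate 3.

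Elf3, on chromosome 1 (135253574 to 135258472), did not differ by more than the replicate spread. Its 3 probes were all kept. The brightest had 7.06, 6.78 and 6.97 on the arrays labelled 4T1-MMP3lo and 7.13, 6.94 and 7.39 on the 4T1-SC arrays, overlapping groups with a log2 fold change of −0.22 (SE 0.19, 95% interval −0.66 to 0.23, adjusted p = 0.733 from limma). The other probes gave −0.31 and 0.04. Ehf, the other ETS factor, on chromosome 2 (103263431 to 103303275), has 1 probe, which was detected on no array, with 96.3 to 106.5 intensity units on the arrays labelled 4T1-MMP3lo and 90.3 to 98.6 on the 4T1-SC arrays.

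Bnc1, on chromosome 7 (81966657 to 81992299), had the smallest adjusted p of the 7 genes. Its scanner intensity was 228.3, 231.9 and 256.7 on the arrays labelled 4T1-MMP3lo and 360.2, 737.1 and 584.6 on the 4T1-SC arrays. The arrays labelled 4T1-MMP3lo lay close together, and 4T1-SC replicate 1 was the lowest of its group without reaching them. Normalized values of 7.07, 7.33 and 7.18 on the arrays labelled 4T1-MMP3lo (7.20 ± 0.13, SD, n = 3) and of 8.40, 9.17 and 9.0 on the 4T1-SC arrays (8.86 ± 0.41, SD, n = 3) gave a fall of 3.17-fold, or −1.66 on the log2 scale (SE 0.24, 95% interval −2.20 to −1.12, adjusted p = 0.0241 from limma). Its pairs differed by −1.33, −1.84 and −1.82. The call was lost with any array left out other than 4T1-SC replicate 1 (adjusted p = 0.0617 to 0.153 from limma), with log2 fold changes between −1.89 and −1.50.

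The promoters of Bnc1, which fell, and of Elf3, which did not pass the threshold, are printed below as the pair with the highest and the lowest share of G and C among the 3 promoters of measured genes found. Of the 9 genes, 4 were found in the RefSeq promoter table (GRCm38.p6). Each line gives the 250 bases upstream of the annotated start, 5′ to 3′ on the minus strand that both genes occupy, at chr7:81992300-81992549 for Bnc1 and chr1:135258473-135258722 for Elf3. Capitals mark the only match to a searched motif.
Bnc1: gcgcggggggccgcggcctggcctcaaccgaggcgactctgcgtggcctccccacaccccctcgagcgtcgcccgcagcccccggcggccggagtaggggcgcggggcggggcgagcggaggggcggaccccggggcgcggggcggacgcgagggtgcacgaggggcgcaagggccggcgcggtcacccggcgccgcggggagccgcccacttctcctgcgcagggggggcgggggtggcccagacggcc
Elf3: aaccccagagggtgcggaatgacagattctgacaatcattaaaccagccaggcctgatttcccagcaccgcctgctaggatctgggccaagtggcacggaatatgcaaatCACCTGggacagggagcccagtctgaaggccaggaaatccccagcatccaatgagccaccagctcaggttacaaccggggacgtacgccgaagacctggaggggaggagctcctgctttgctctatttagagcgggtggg
Bases G and C make up 83.6% of the Bnc1 window and 57.2% of the Elf3 window, against 65.2% in the window of Ovol2, which also fell, and a median of 52.4% over all 32851 windows. The motifs searched, on both strands, were the E-boxes CAGGTG and CAGGTA of Snail and ZEB repressors, AACCGGTT of Grainyhead-like factors, CCGTTA of OVO-like factors and CCGGAAG of ETS factors. They stand in 17.2%, 10.0%, 0.116%, 2.18% and 6.91% of all windows in that order. The match in Elf3 is CACCTG, the E-box CAGGTG read on the other strand, with its first base 140 bases upstream of the start, and Bnc1 and Ovol2 have none. The annotated gene of Ovol2 reaches 718 bases upstream of the start used here, so that its window lies inside the gene. A match of letters is a description and shows no binding.

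The regulators that oppose the epithelial factors did not pass the threshold in either direction. Of 15 transcription factors of the mesenchymal state, 9 were measured, and 3 had a positive and 6 a negative log2 fold change (median −0.38). Zeb2, a repressor of epithelial genes, had log2 intensities of 7.20, 7.55 and 7.43 on the arrays labelled 4T1-MMP3lo and 7.08, 5.76 and 6.02 on the 4T1-SC arrays. Every array labelled 4T1-MMP3lo lay above every 4T1-SC array, by 0.12 in the pair of replicate 1 and by 1.79 and 1.41 in the others, for a log2 fold change of 1.11 (SE 0.33, adjusted p = 0.203 from limma). Tcf3, an E-box factor, differed by −0.75 (SE 0.22, adjusted p = 0.196). Zeb1, Snai2, Twist2, Prrx1, Gsc and Klf8 were not detected on enough arrays to be measured. Of 17 other epithelial transcription factors, 7 were measured and none passed, with a median of −0.02 and the largest differences in Gata3 (−0.63, SE 0.35, adjusted p = 0.536) and Tfap2c (0.48, SE 0.43, adjusted p = 0.730).

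**Figure D5:**
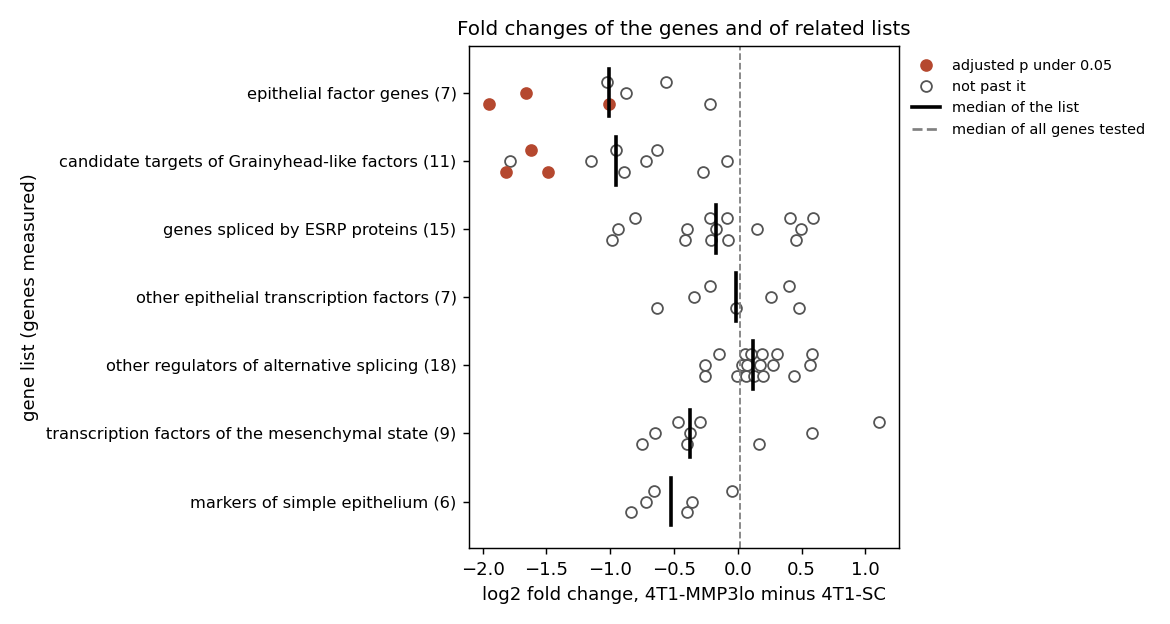
Log2 fold change (horizontal axis, arrays labelled 4T1-MMP3lo minus 4T1-SC) of each measured gene in the epithelial factor group and 6 related lists (vertical axis, number of genes in parentheses), filled where the adjusted p was under 0.05, with a bar at the list's median and a dashed line at the median of all genes. The medians are −1.01 for the epithelial factor genes and −0.96 for candidate Grainyhead-like targets, and lie between −0.53 and 0.12 in the other lists.

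Levels of cell type markers are given beside these values, and their part in them was not tested. The 6 measured markers of simple epithelium all had negative log2 fold changes, none past the threshold, with a median of −0.53. Their median was −0.018 in the pair of replicate 1, where Krt8, Krt19 and Cdh1 were positive. It was −0.76 in the pair of replicate 2 and −0.75 in that of replicate 3. The summed intensity of the 6 markers was 13200 to 15200 on the arrays labelled 4T1-MMP3lo and 14630 to 20230 on the 4T1-SC arrays. Of the leukocyte markers 1 of 6 on the array was measured (Cd3e), and its level was 141 to 146.1 on the arrays labelled 4T1-MMP3lo and 130.5 to 142 on the 4T1-SC arrays. Of the endothelial markers 1 of 6 was measured (Kdr), with 139.2 to 156.1 on the arrays labelled 4T1-MMP3lo and 138.9 to 146.2 on the 4T1-SC arrays. Of the fibroblast markers 1 of 7 was measured, Pdgfra, with 371.7 to 628.6 on the arrays labelled 4T1-MMP3lo and 241.1 to 441.7 on the 4T1-SC arrays. Pdgfra had a log2 fold change of 0.93 (SE 0.45, adjusted p = 0.470 from limma). In bulk RNA, fewer cells that express a gene and less of its transcript in each cell cannot be told apart.

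The 7 genes were compared by how their values moved over the 6 arrays. Likeness was measured as the root mean square difference of log2 values after each gene was centred on its own mean. Values were not scaled, so a distance reflects the size of a change as well as its shape over the arrays. The closest 2 of the 7 were Ovol2 and Grhl2 (0.282) and the farthest were Esrp1 and Elf3 (0.943). Among all genes tested, the 5 nearest to Esrp1 were Epb41l4a (0.140), Moxd1 (0.180), Rab25 (0.225), Prom2 (0.290) and Tmem54 (0.290). In all 5, as in Esrp1, the array labelled 4T1-MMP3lo replicate 1 is the highest of its group, which the choice by likeness favours. Moxd1, Rab25 and Tmem54 are also among the genes that the study picked from these arrays. Nearest to Ovol2 were Pik3r3 (0.0894), Eif2s3x (0.141), Hmces (0.148), Cobl (0.150) and Mblac1 (0.151). Nearest to Grhl2 were Usp43 (0.0755), Lrp11 (0.123), Kif13a (0.129), Pdk3 (0.133) and Jag2 (0.145). These are descriptions over 6 arrays that hold the group difference itself.

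How many of the 7 genes passed the threshold depended on single arrays. It was 0 without 4T1-MMP3lo replicate 2 or 3 or 4T1-SC replicate 2 or 3, 1 without 4T1-MMP3lo replicate 1 and 4 without 4T1-SC replicate 1, while all 7 log2 fold changes were negative each time. The genes lower past the threshold among all 9348 moved as well, to 0 or 1 in the first 4 of these fits, 26 in the fifth and 500 without 4T1-SC replicate 1, against 46 with all arrays. The number among the 7 was also 0 without background correction, where 3 of all genes were lower past the threshold. Esrp1 and Bnc1 there differed by −1.84 and −1.24 (adjusted p = 0.0905 and 0.0757 from limma).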

How the data were processed

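Bead arrays of 3 cultures labelled 4T1-MMP3lo and 3 labelled 4T1-SC were used. The authors deposited the scanner intensity of each probe on a linear scale, with no background subtraction or normalization visible in it, and beside it a deposited detection p-value. They also deposited log2 values, which match quantile-normalized intensities without background correction. The software behind these tables is not given in the sources used here.

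Intensities were background-corrected and quantile-normalized with neqc of limma 3.58.1 (R 4.3.3, offset 16). Probes with a detection p under 0.05 on at least 3 of 6 arrays were kept, 16969 of 45281, and the brightest stood for each gene. Names came from the annotation of the array and RefSeq tables. Groups were compared with lmFit and eBayes over all 9348 genes, or over all kept probes for Cd44, with Benjamini-Hochberg adjustment. A gene "fell" or "rose" at an adjusted p under 0.05. The fits were tested on simulated data. With 3 arrays in each group, their number limits the precision, and p-values measure only the spread between these cultures.

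The genes, the lists and the tests were chosen with earlier results of these data known. The genes named are all 9 factors, Mmp3, in each list the genes past the threshold (up to 4) or else the 2 with the largest change, and the 5 nearest profiles of Esrp1, Ovol2 and Grhl2. Cd44, Rab25, Cdh1, Qk, Fgfr2 and Enah were named after their values were seen.

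Same-numbered arrays share a day in the labels, and their deviations from the group means correlated across genes at 0.442, 0.212 and 0.283. Crossing replicates 2 and 3 gave 0.309 and 0.235, so that the correlations set replicate 1 apart and only the day in the labels pairs replicates 2 and 3. The comparison has no block, after the unpaired test of the methods, and the block is an alternative. The others were no background correction, the authors' log2 table, another offset, a median shift, other probe summaries and filters, array weights, the methods' t-test and leaving out arrays.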

Additional observations from a re-analysis of the deposited data

How the results depend on the processing

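All 7 genes kept a negative log2 fold change under all 18 alternatives run. The number past the threshold was 3 in the main comparison and likewise 3 with the mean of all kept probes, and 2 with a median shift or with each probe tested by itself. It was 0 without background correction, with the authors' normalized table, with no filter on detection and by the methods' t-test, where 5 were lower at an unadjusted p under 0.05. It was 1 with an offset of 50 or with probes detected on all 6 arrays, 5 without replicate 1 of both groups, 7 with array weights, and 0 to 4 with 1 array left out. Among all genes, 46 were lower in the main comparison, 42 with the mean of probes, 33 with a median shift and 41 with each probe by itself. That number was 3 without background correction or with the authors' table, 9 of 19053 with no filter and 0 by the t-test. With an offset of 50 it was 20, with detection on all 6 arrays 22 of 8109, without replicate 1 of both groups 500 and with array weights 1470. The median of the 7 genes was −0.69 without background correction and with the authors' table, and −1.04 to −0.88 with 1 array left out.

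The number of genes past the threshold, 102, became 12 without background correction or with the authors' table, 38 with an offset of 50, 30 with no filter, 50 with detection on all 6 arrays, 3103 with array weights, 0 by the methods' t-test (1054 at an unadjusted p under 0.05), 1012 without replicate 1 of both groups, and 0 to 1000 with 1 array left out, the highest without 4T1-SC replicate 1. With the replicate number as a block it was 194, of which 77 were lower, and 3 of the 7 genes were again past the threshold. The block changed no other call reported here. The cause of these differences was not tested.

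The log2 fold change of Mmp3 turned positive with array weights (0.19) and without replicate 1 of both groups (0.36), and ran from −0.55 to 0.85 with 1 array left out, as in 0.18 and 0.21 without 4T1-SC replicates 2 and 3. The alternatives for Cd44 were added after its values were seen. Its probes 3 to 6 kept a negative sign throughout and lost their calls by the methods' t-test (adjusted p = 0.162 to 0.247). With 1 array left out, probe 1 ran from −0.24 to 0.13 (0.013 without 4T1-SC replicate 3), probe 2 from −0.90 to 0.29 and probe 7 from −0.79 to 0.051 (0.037 without 4T1-MMP3lo replicate 1). Probe 1 was at 0.094 without replicate 1 of both groups. Probes near background, such as those of Ovol1 and Ovol2, limit what the arrays can show.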
